A study of Mus musculus with 6 samples.

Results

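The genes studied are 10 components of the heterochromatin silencing machinery. With earlier results of these data known, they were chosen by name, for what their products are known to do. They are Trim28, Setdb1, Atf7ip, Mphosph8, Smchd1, Cbx1, Cbx3, Cbx5, Daxx and Atrx, and each was found as a single gene among the 34245 genes with a deposited value. Expression was measured by RNA-seq in 3 Dnmt3b+/- peripheral T-cell lymphomas (PTCL), out of 6 samples in the series. The other 3 samples are whole-genome bisulfite sequencing libraries and were not analysed here. Each tumor came from a lymph node of a terminally sick FVB mouse, and total RNA was extracted with Trizol. The mice carried a germline knockout allele of the DNA methyltransferase Dnmt3b beside a wild-type allele, in every cell and from conception. Ages are not given in the labels, and neither is a sort of the tumor cells, so the values cover all cells of the dissected tissue. The labels call the 3 samples independent and do not tie them to numbered animals. Control CD8+ T-cells and Dnmt3a-deficient lymphomas were not analysed here, so the comparisons are between the 3 tumors and between genes, and no test between groups was possible.

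Heterochromatin is the compact, transcriptionally silent part of the genome. Sequence-specific KRAB zinc finger proteins recruit the scaffold TRIM28, which brings in the histone H3 lysine 9 methyltransferase SETDB1 with its partner ATF7IP, and HP1 proteins bind the methylated histone. The HUSH complex, the ATPase SMCHD1 and the histone H3.3 chaperone pair DAXX and ATRX add further layers of silencing. In T-cells this machinery is known for keeping endogenous retroviruses and genes of alternative lineages silent. Retroviral transcripts were not analysed here.

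All values are FPKM, fragments scaled to the length of the exons and to library size, on a linear scale, so levels can be compared between genes per length. The depth behind the FPKM was 30726570 reads for tumor 1, 18969988 for tumor 2 and 20770928 for tumor 3. Reads per gene were recovered from the FPKM, and the 10 genes had between 249 and 7473 reads in a tumor. Ratios between tumors are therefore given with exact 95% intervals for most members, from these reads, which cover counting error only and not the biological variation between tumors. Over the 11191 genes with a mean of at least 1 FPKM, the median log2 ratio was 0.18 between tumors 1 and 2, 0.24 between tumors 1 and 3 and 0.06 between tumors 2 and 3. Typical genes were thus somewhat higher in tumor 1, and differences are given relative to these medians where it matters. The order of the tumors was checked under 2 rescalings. Median-of-ratios factors brought these medians to 0.01, -0.04 and -0.05, and equal summed FPKM widened them to 0.31, 0.49 and 0.17.

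T-cell markers were expressed in every tumor. The summed FPKM of 10 T-cell genes was 1480, 1109 and 1464 in tumors 1, 2 and 3, with Cd8b1 the most abundant of them. Cd4 had the lowest mean of the list, with 28.4, 4.28 and 8.22 FPKM. Other cell types were present in unequal amounts. The 5 B-cell genes summed to 56.2, 13.7 and 103.6 FPKM in tumors 1, 2 and 3, led by Cd79a. The 5 myeloid genes summed to 263.4, 89.6 and 33.2 FPKM. Lyz2 had the highest mean of them, although Cd68 was higher in tumor 2, with 51.2 FPKM against 33.1. The 5 erythroid genes summed to 202.4, 38.4 and 4.74 FPKM, led by Hba-a1. The 5 fibroblast genes summed to 10.1, 41.0 and 0.345 FPKM. Col1a1 had their highest mean, although in tumor 1 Dcn and Col3a1 were higher, with 5.04 and 1.86 FPKM against 1.63. The 5 endothelial genes summed to 14.6, 14.9 and 5.32 FPKM, led by Pecam1. The 7 pancreatic acinar genes summed to 78.8, 411.8 and 0.632 FPKM, led by Ctrb1 in tumors 1 and 2. In tumor 3, Ctrb1 and Pdgfra of the fibroblast list had no read. In such bulk samples, fewer cells of a type and less RNA per cell cannot be told apart.

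All 10 genes were well expressed, with values from 3.66 to 58.3 FPKM. The median of their means was 12.4 FPKM, against 5.70 FPKM over all genes with a mean of at least 1 FPKM. Daxx stood apart from the rest, since tumor 2 had 58.3 FPKM whereas tumors 1 and 3 had 13.9 and 17.5 FPKM. The highest tumor had at least 2 times the FPKM of the lowest for 3 of the 10 genes, Daxx, Mphosph8 and Cbx3, where 34.4% of all genes reached this ratio. A share of 3 in 10 is close to that background, so the members did not stand out from other genes in this respect. Their median ratio of highest to lowest tumor was 1.58, against 1.68 over all genes, and their median coefficient of variation was 23.2%, against 26.8%. In the deposited values the interval of that ratio lay above 1 for each of the 10 genes, without allowance for picking the highest and lowest of 3 tumors, and under equal summed FPKM the ratio of Atf7ip fell to 1.02. As deposited, the ratio was under 1.3 for 4 genes, Trim28, Atf7ip, Cbx1 and Atrx.

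The count of 3 genes rested on tumor 2. Between tumors 1 and 2, 3 of the 10 genes differed by at least 2 times, where 25.3% of all genes did. Between tumors 2 and 3 only Daxx did, 1 of 10 against 16.4%, and between tumors 1 and 3 none did, against 17.7%. Under median-of-ratios factors Cbx3 fell to a ratio of 1.89 and 2 genes remained, against 32.4% of all genes. Under equal summed FPKM Setdb1 joined the 3 genes with 2.18, which made 4 of 10 against 39.6%.

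Tumor 1 had the highest value for 4 of the 10 genes, Setdb1, Mphosph8, Cbx1 and Cbx3, where 50.6% of all genes were highest there. Under equal summed FPKM Trim28 and Cbx5 joined them, 6 of 10 against 60.7%, and under median-of-ratios factors Cbx1 left, 3 of 10 against 35.3%. Tumor 2 had the highest value for Trim28, Smchd1, Cbx5 and Daxx, 4 of 10 against 33.7%, but only for Smchd1 and Daxx under equal summed FPKM, 2 of 10 against 30.6%. Tumor 3 had the highest value for Atf7ip and Atrx, 2 of 10 against 15.7%, and for the same genes against 8.69% under equal summed FPKM. Under median-of-ratios factors Cbx1 joined them, 3 of 10 against 30.2%, which is close to the share of all genes. No tumor was high for the machinery as a whole. The FPKM of the 10 genes summed to 146.7, 176.8 and 129.7 in tumors 1, 2 and 3. Without Daxx the sums were 132.8, 118.4 and 112.2 FPKM, so the first place of tumor 2 came from this gene.

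**Figure D1:**
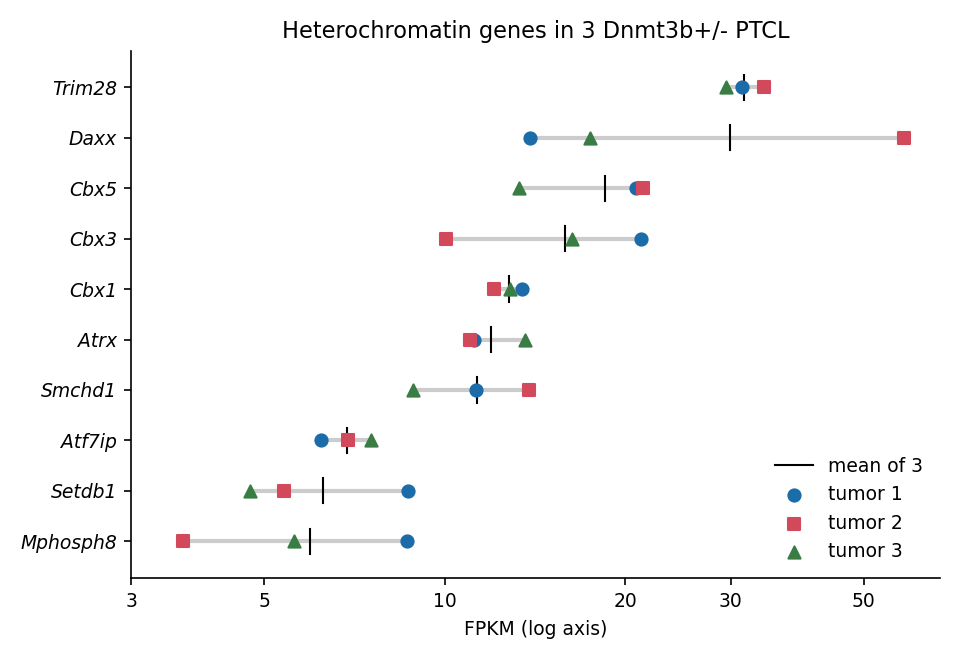
FPKM of the 10 heterochromatin genes (log axis) in tumors 1 (circles), 2 (squares) and 3 (triangles), ordered by mean, with a grey line from the lowest to the highest tumor and a black tick at the mean of 3. Daxx spans the widest range, from 13.9 to 58.3 FPKM, while Trim28 and Cbx1 stay within narrow ranges.

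**Figure D2:**
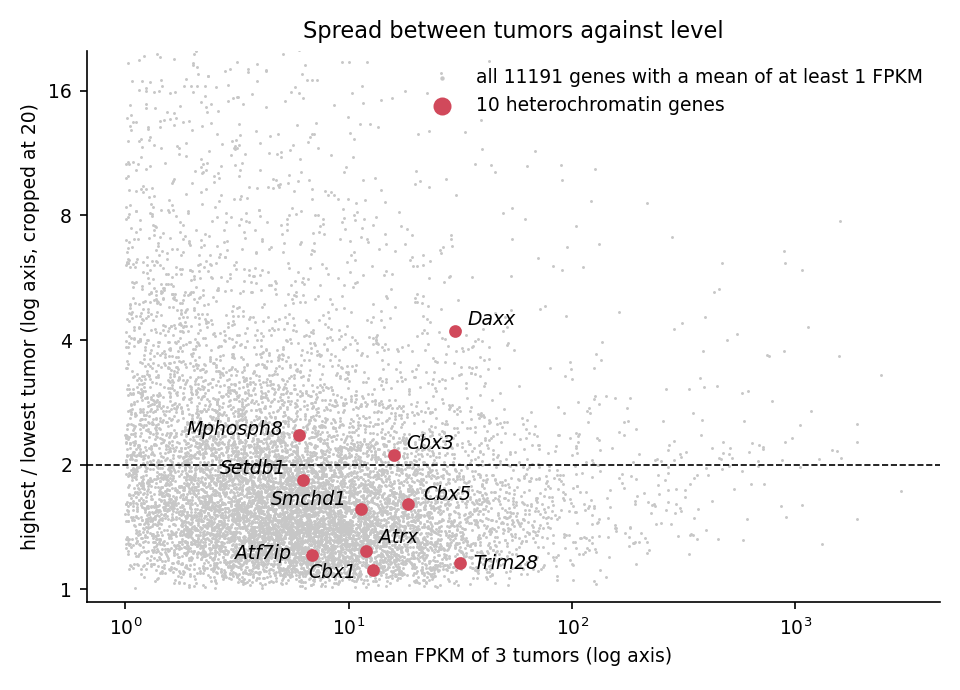
Ratio of the highest to the lowest tumor (log axis) against the mean FPKM of 3 tumors (log axis), for the 11191 genes with a mean of at least 1 FPKM (grey) and the 10 heterochromatin genes (red). The dashed line marks a ratio of 2, which 3 of the 10 genes exceed, and 372 genes with a ratio above 20 lie outside the plot.

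TRIM28, also known as KAP1, is the corepressor that links DNA-bound KRAB zinc finger proteins to silencing enzymes. In mm10, Trim28 (ENSMUSG00000005566) spans bases 12999114 to 13031035 of chromosome 7, and its FPKM was 31.3, 34.1 and 29.4 in tumors 1, 2 and 3. The 3 tumors lay close together, and the place of tumor 2 as the highest passed to tumor 1 under equal summed FPKM. Its mean of 31.6 ± 2.34 FPKM (SD, n = 3) was the highest of the 10 genes and lay above that of 91.6% of the genes with a mean of at least 1 FPKM. The ratio of tumor 2 to tumor 3 was 1.16, with an interval from 1.10 to 1.22. Zbtb45, which overlaps Trim28 on the other strand, had 2.95, 4.45 and 3.57 FPKM. The strand setting of the quantification is not given in the sources used here, so reads of the shared bases cannot be told apart.

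SETDB1 writes H3 lysine 9 trimethylation at the sites that TRIM28 marks out. Setdb1 (ENSMUSG00000015697) spans bases 95323525 to 95357202 of chromosome 3. Tumors 1, 2 and 3 had 8.68, 5.39 and 4.73 FPKM of Setdb1. Tumor 1 was the highest and tumor 3 the lowest, also under both rescalings. The mean was 6.27 ± 2.11 FPKM (SD, n = 3) and the ratio of tumor 1 to tumor 3 was 1.84, with an interval from 1.68 to 2.01. Relative to the median gene, this difference was 0.64 on the log2 scale. Cers2 meets Setdb1 on the other strand over 75 bases and was far more abundant, with 28.4, 16.5 and 18.7 FPKM. Tumor 1 was the highest for Cers2 too. Gm37500 also overlaps Setdb1 and had at most 21 reads in a tumor.

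ATF7IP binds SETDB1 and keeps it stable and in the nucleus. The FPKM of Atf7ip (ENSMUSG00000030213), at bases 136506167 to 136610862 of chromosome 6, was 6.21, 6.90 and 7.52 in the same order of tumors. Its order of tumors was the reverse of that of Setdb1, with tumor 3 the highest and tumor 1 the lowest, also under both rescalings. The spread was small, with a mean of 6.87 ± 0.656 FPKM (SD, n = 3) and a ratio of 1.21. Under equal summed FPKM the ratio was 1.02.

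The balance between these partners differed between tumors. The FPKM of Setdb1 divided by that of Atf7ip was 1.40, 0.782 and 0.629 in tumors 1, 2 and 3. The methyltransferase transcript was thus more abundant per length than its partner's in tumor 1 and less abundant in tumors 2 and 3, and such a ratio within a tumor does not depend on the scaling of the libraries. Trim28 exceeded Setdb1 by 3.61, 6.32 and 6.22 times in tumors 1, 2 and 3. The scaffold was thus the more abundant transcript in all 3 tumors.

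MPHOSPH8 is the chromodomain subunit of HUSH, which binds trimethylated H3 lysine 9 and silences young retroelements and intronless transgenes together with SETDB1. Mphosph8 (ENSMUSG00000079184) spans bases 56668248 to 56697430 of chromosome 14. Its FPKM was 8.65, 3.66 and 5.60 in tumors 1, 2 and 3. Tumor 1 was the highest and tumor 2 the lowest, also under both rescalings. The reads behind these levels numbered 953, 249 and 417, and 249 was the lowest number of the 10 genes in any tumor. The mean was 5.97 ± 2.51 FPKM (SD, n = 3), the lowest of the 10. The ratio of tumor 1 to tumor 2 was 2.36, with an interval from 2.05 to 2.73, and it was 2.11 under median-of-ratios factors. On the log2 scale the difference was 1.06 relative to the median gene. Gm16973 overlaps Mphosph8 on the other strand and had 5.57, 3.14 and 3.92 FPKM, in the same order of tumors. How many reads the overlapping pair shared was not tested.

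SMCHD1, a noncanonical SMC protein, silences genes on the inactive X chromosome, imprinted clusters and repeat arrays. Smchd1 (ENSMUSG00000024054) spans bases 71344489 to 71475343 of chromosome 17, and its FPKM was 11.3, 13.8 and 8.86 in tumors 1, 2 and 3. Tumor 2 was the highest and tumor 3 the lowest, also under both rescalings. The mean was 11.3 ± 2.49 FPKM (SD, n = 3), and the ratio of tumor 2 to tumor 3 was 1.56. The overlapping genes Gm26561, Gm37639 and Gm38220 had at most 1.73 FPKM.

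The HP1 proteins bind methylated H3 lysine 9 with their chromodomains and bridge nucleosomes. HP1 beta is the product of Cbx1 (ENSMUSG00000018666), at bases 96789127 to 96808640 of chromosome 11. The FPKM of Cbx1 was 13.5, 12.1 and 12.9 in tumors 1, 2 and 3. The tumors nearly coincided, and the highest was tumor 1, or tumor 3 under median-of-ratios factors. With a mean of 12.8 ± 0.686 FPKM (SD, n = 3) and a ratio of 1.11, Cbx1 had the smallest ratio of the 10 genes as deposited and under median-of-ratios factors, but not under equal summed FPKM, where it was 1.24 against 1.02 for Atf7ip and 1.14 for Atrx. Its log2 difference between tumors 1 and 2 was -0.02 relative to the median gene.

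HP1 gamma, found also in the bodies of active genes, is the product of Cbx3 (ENSMUSG00000029836), at bases 51470360 to 51483704 of chromosome 6. Cbx3 reached 21.2, 10.1 and 16.3 FPKM in tumors 1, 2 and 3. Tumor 1 was the highest and tumor 2 the lowest, also under both rescalings. The mean was 15.9 ± 5.60 FPKM (SD, n = 3) and the ratio 2.11, with an interval from 1.98 to 2.26. This interval includes 2, so counting error alone leaves its side of that threshold undecided. GENCODE M21 lists 8 pseudogenes named after Cbx3, none of them with a deposited value. Reads that align equally well to such copies are lost to a mapping quality filter, and their number was not tested.

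HP1 alpha is the product of Cbx5 (ENSMUSG00000009575), at bases 103191544 to 103239816 of chromosome 15, and is concentrated at pericentromeric heterochromatin. The FPKM of Cbx5 was 20.8, 21.4 and 13.3 in tumors 1, 2 and 3. Tumor 3 was the lowest under every scaling, while tumors 1 and 2 were close and exchanged places under equal summed FPKM. The mean was 18.5 ± 4.50 FPKM (SD, n = 3), and the ratio of tumor 2 to tumor 3 was 1.61, with an interval from 1.52 to 1.69.

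As shares within a tumor, which do not depend on the scaling, the HP1 genes differed in their balance. Of the summed FPKM of the paralogs, Cbx5 held 37.5% in tumor 1, 49.1% in tumor 2 and 31.4% in tumor 3. Cbx3 held 38.2%, 23.1% and 38.4%, and Cbx1 24.2%, 27.8% and 30.3%. In tumor 2, Cbx5 was thus the leading paralog and Cbx3 the least abundant, whereas Cbx3 led by a narrow margin in tumor 1 and more clearly in tumor 3. Cbx5 exceeded Cbx3 by 2.13 times in tumor 2, against ratios of 0.981 and 0.817 in tumors 1 and 3. The sum of the paralogs was 55.5, 43.5 and 42.5 FPKM.

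**Figure D3:**
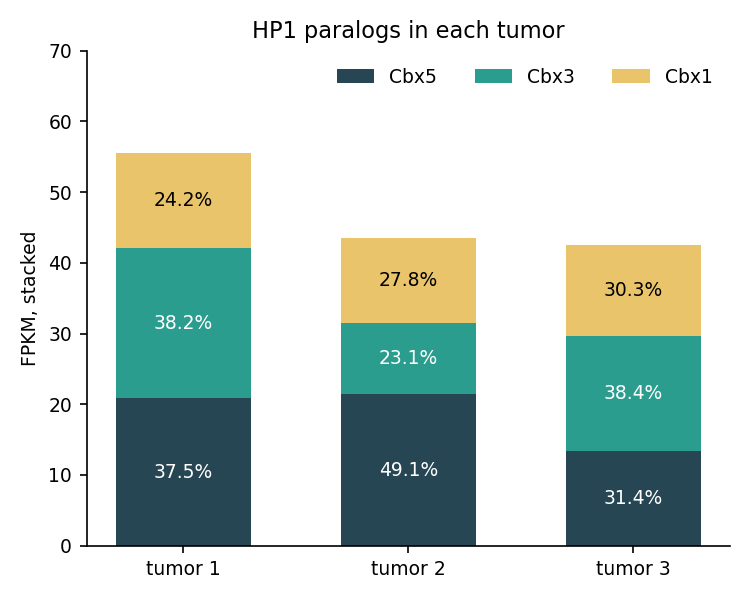
FPKM of the HP1 genes Cbx5, Cbx3 and Cbx1 stacked in each tumor, with the share of each gene of the tumor's sum printed in its bar. Cbx3 takes 23.1% in tumor 2, against 38.2% and 38.4% in tumors 1 and 3.

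Cbx3 and Cbx5 each lie back to back with a gene of an abundant RNA-binding protein, and these neighbors were named after their values were seen. Hnrnpa2b1 starts 466 bases from Cbx3 on the other strand and had 148.5, 102.4 and 138.4 FPKM in tumors 1, 2 and 3. Tumor 2 was the lowest for both genes of this pair, but the fold was smaller for Hnrnpa2b1. Hnrnpa1 starts 616 bases from Cbx5 and had 142.6, 131.4 and 127.7 FPKM. Its tumors lay closer together than those of Cbx5.

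DAXX and ATRX deposit histone H3.3 at telomeres, pericentromeric repeats and silenced retroelements, DAXX as the histone chaperone and ATRX as the chromatin remodeler. Daxx (ENSMUSG00000002307) lies on the plus strand of chromosome 17 from 33909414 to 33915589, and Atrx (ENSMUSG00000031229) on the minus strand of chromosome X from 105797615 to 105929403. The stretches before both genes are shown because the transcripts of this complex had unlike profiles. They are the bases of the RefSeq promoter windows of GRCm38.p6 that lie before the annotated gene, chr17:33909195-33909413 on the plus strand for Daxx and chrX:105929404-105929622 on the minus strand for Atrx, with CG in capitals.
Daxx: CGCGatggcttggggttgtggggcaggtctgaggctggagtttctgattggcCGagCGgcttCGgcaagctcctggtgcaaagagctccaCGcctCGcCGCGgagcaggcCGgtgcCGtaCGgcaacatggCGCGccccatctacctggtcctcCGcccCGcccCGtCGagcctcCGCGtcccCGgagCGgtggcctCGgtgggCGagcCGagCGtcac
Atrx: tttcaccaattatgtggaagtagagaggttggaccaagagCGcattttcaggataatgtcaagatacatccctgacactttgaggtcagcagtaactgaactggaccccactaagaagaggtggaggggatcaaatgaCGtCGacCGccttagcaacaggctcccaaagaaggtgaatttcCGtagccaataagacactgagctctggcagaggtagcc
The Daxx stretch, from the first of its 3 windows, holds 26 CG and the Atrx stretch 5 in the same 219 bases. Whether the number of CG bears on the spread between tumors was not tested. Part of the Daxx stretch is an exon of the noncoding gene BC051226 on the other strand, and the Atrx stretch holds no annotated exon.

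The FPKM of Daxx was 13.9, 58.3 and 17.5 in tumors 1, 2 and 3. Tumor 2 stood far above the others, which were close to each other, and tumor 1 was the lowest, also under both rescalings. The reads of Daxx numbered 1306, 3384 and 1109. With a mean of 29.9 ± 24.7 FPKM (SD, n = 3), the spread between tumors was nearly as large as the mean, and tumor 2 held 65.0% of the summed FPKM. Without tumor 2 the mean was 15.7 FPKM. The ratio of tumor 2 to tumor 1 was 4.20, with an interval from 3.94 to 4.48, and it was 3.83 under equal summed FPKM and 4.69 under median-of-ratios factors. On the log2 scale this is a difference of 2.07, or 2.25 relative to the median gene. Of the genes with a mean of at least 1 FPKM, 89.3% had a smaller ratio of highest to lowest tumor than Daxx.

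Its partner had a different profile. The FPKM of Atrx was 11.2, 11.0 and 13.6 in tumors 1, 2 and 3, and 7473, 4550 and 6162 reads lay behind it. Tumor 3 was the highest under every scaling, and the lowest was tumor 2, or tumor 1 under median-of-ratios factors. The mean was 11.9 ± 1.47 FPKM (SD, n = 3), with a ratio of 1.24 and an interval from 1.19 to 1.29. The FPKM of Daxx divided by that of Atrx was 1.24, 5.29 and 1.28 in tumors 1, 2 and 3. The transcripts of the complex were thus present at similar levels per length in tumors 1 and 3 and at unequal levels in tumor 2.

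BC051226, the noncoding gene that starts 97 bases from Daxx on the other strand, had 2.89, 18.6 and 9.20 FPKM in tumors 1, 2 and 3 and was named after its values were seen. Both genes of this divergent pair were highest in tumor 2 and lowest in tumor 1, also under both rescalings.

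Daxx is known as a gene that interferons induce, and 12 interferon-stimulated genes were therefore set beside it, in a list written after some of its values had been seen. All 12 were highest in tumor 2, also under both rescalings, where 33.7% of all genes were highest there. In the deposited values the order of tumors was that of Daxx for 10 of the 12, with tumor 3 next and tumor 1 lowest. The median FPKM of the list was 10.9, 69.0 and 23.3 in tumors 1, 2 and 3, the sum reached 1383 FPKM in tumor 2 and 469.7 FPKM in tumor 3, and Bst2 was the most abundant gene. The median ratio of highest to lowest tumor was 7.29 in this list, larger than that of Daxx. Irf9 was at 13.4, 19.3 and 16.4 FPKM, which shows that some genes of the list varied less than Daxx. The acinar and fibroblast lists also had their highest sums in tumor 2, as given above. The part of interferon signaling or of these other tissues in the Daxx value was not tested.

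**Figure D4:**
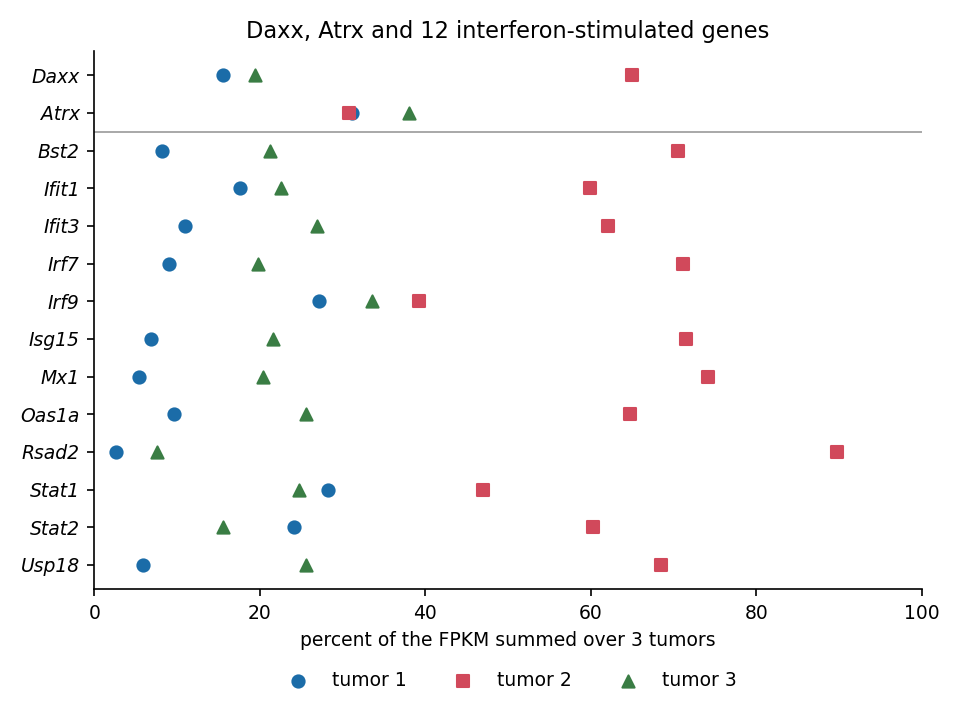
Percent of the FPKM summed over the 3 tumors that lies in tumor 1 (circles), 2 (squares) and 3 (triangles), for Daxx, Atrx and 12 interferon-stimulated genes. Daxx has 65.0% in tumor 2, while Atrx is spread nearly evenly, with 30.8% there.

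DAXX is also a resident of PML nuclear bodies, and genes of these bodies were examined in a list written after values had been seen. Pml, the scaffold of the bodies, had 10.1, 38.4 and 17.2 FPKM in tumors 1, 2 and 3. It was highest in tumor 2 and lowest in tumor 1, like Daxx, also under both rescalings. Sp100, another constituent, had 43.8, 51.9 and 45.7 FPKM, with tumor 2 much less set apart.

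The genes most like Daxx were sought among the 3432 genes with a mean of at least 10 FPKM, by the largest difference between their shares of the summed FPKM in the 3 tumors and those of Daxx. The nearest 5 were Parp10, A930037H05Rik, Dap, Adora2a and Trafd1. Parp10 had 14.8, 62.5 and 17.2 FPKM, with shares that differed from those of Daxx by at most 1.29 percentage points, and the largest such difference for Trafd1 was 2.37 points. With 3 tumors many genes can share a profile. A share in tumor 2 at least as large as that of Daxx was found in 72 of the 3432 genes, Daxx among them, or 2.10%.

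The promoter windows of RefSeq hold 250 bases before and 50 after a start, and all 10 genes matched, with 14 windows among 32851. CG was frequent in them. The richest window of each gene held from 11 CG, in Atrx, to 40, in Smchd1, with a median of 28.5 against 7 over all windows. Each of the 10 lay above 7. The 2 medians are unlike, since only the richest window was taken for Cbx3, Cbx5 and Daxx, which have several. The second window of Cbx5 held 8 CG. The core letters of the interferon-stimulated response element, GAAA, any 2 bases and GAAA again, were searched on both strands with overlapping matches counted. They were found in 3.44% of all windows and in 1 of the 14 windows, the second of Cbx5. None of the 3 windows of Daxx held these letters, which says only that they are not in these windows. Of the interferon-stimulated genes, 9 matched and 7 of these held them. As an example, the 250 bases before Isg15, chr4:156200819-156201068 on the minus strand of GRCm38.p6, hold 3 overlapping matches, which are in capitals.
Isg15: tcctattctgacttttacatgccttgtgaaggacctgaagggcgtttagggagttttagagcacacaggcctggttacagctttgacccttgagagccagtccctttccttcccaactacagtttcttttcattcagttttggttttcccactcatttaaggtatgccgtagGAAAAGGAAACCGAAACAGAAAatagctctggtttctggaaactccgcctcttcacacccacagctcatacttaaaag

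By their means the 10 genes ranked from Trim28 at 31.6 FPKM through Daxx, Cbx5, Cbx3, Cbx1, Atrx, Smchd1, Atf7ip and Setdb1 to Mphosph8 at 5.97 FPKM. Neighbors in this order had overlapping ranges in 8 of 9 pairs. The exception was the step from Smchd1 to Atf7ip, where Smchd1 was higher in all 3 tumors. The 3 genes below this step, Atf7ip, Setdb1 and Mphosph8, thus lay below the 7 above it in the deposited values, while neighbors within either set overlapped. The place of Daxx depended on tumor 2, and in tumor 1 its FPKM was close to that of Cbx1.

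Genes that act with the 10 were taken from lists of the pathway. Without the 2-cell and proliferation lists, 47 other genes were found, of which 42 had a mean of at least 1 FPKM, and in 6 of these the highest tumor had at least 2 times the lowest, 2810474O19Rik, Ehmt2, Emd, Hells, Lrif1 and Pphln1, where 34.4% of all genes reached this ratio. Under equal summed FPKM 10 of the 42 did, against 39.6%, and under median-of-ratios factors 6, against 32.4%. In the deposited values their median ratio was 1.49, close to the 1.58 of the 10 genes. Tumor 1 was the highest for 26 of the 42, against 50.6% of all genes, for 31 under equal summed FPKM, against 60.7%, and for 20 under median-of-ratios factors, against 35.3%.

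Among the HUSH genes around Mphosph8, Pphln1, which encodes the subunit periphilin, had 13.5, 5.14 and 3.67 FPKM in tumors 1, 2 and 3. Like Mphosph8 it was highest in tumor 1 under every scaling. Fam208a, the gene of the scaffold TASOR, had 5.51, 3.42 and 3.88 FPKM, and 2810474O19Rik, the gene of RESF1, had 25.4, 9.28 and 9.46 FPKM. All 5 genes of the list, Mphosph8 included, were highest in tumor 1, also under both rescalings, where 50.6% of all genes were highest there as deposited, 60.7% under equal summed FPKM and 35.3% under median-of-ratios factors. The symbol of RESF1 was set after values had been seen, and the proliferation, myeloid and erythroid sums were highest in tumor 1 too. The HUSH list summed to 61.2, 26.9 and 28.7 FPKM.

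Of the H3 lysine 9 methyltransferases beside Setdb1, the euchromatic enzyme gene Ehmt2 was the most abundant, with 16.6, 35.9 and 18.6 FPKM. It was highest in tumor 2 under every scaling, unlike Setdb1. Suv39h2, a gene of a pericentromeric enzyme, had the lowest mean of the list, 1.18 ± 0.347 FPKM (SD, n = 3). Of the demethylases that remove the mark, the 5 with a mean of at least 1 FPKM had ratios under 2. Kdm4a had 9.66 ± 1.37 FPKM (SD, n = 3), Kdm4b had the largest ratio at 1.68, and Kdm4d had at most 52 reads in a tumor. Of the H4 lysine 20 methyltransferases, some of which HP1 recruits, Kmt5a had 9.18 ± 3.25 FPKM and Kmt5b 3.74 ± 0.357 FPKM (SD, n = 3 each), and Kmt5c had a ratio of 1.99.

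H3f3b, a gene of the histone H3.3 that DAXX binds, was the most abundant of the H3.3 list and had 83.1 ± 7.89 FPKM (SD, n = 3), and Ubn2, of the alternative HIRA chaperone, had the lowest mean of that list, 3.14 ± 0.787 FPKM. Daxx alone of the 9 genes of this list reached a ratio of 2. Lrif1, whose product binds HP1 and SMCHD1, had 4.82, 1.63 and 3.24 FPKM. Its order of tumors was that of Cbx3 and not that of Smchd1. Hnrnpk, another gene of the SMCHD1 list, had 60.0 ± 11.8 FPKM (SD, n = 3).

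The KRAB zinc finger genes upstream of Trim28 were mostly low, and 5 of 8 had a mean of at least 1 FPKM. Zfp445 had the highest level, 14.7 ± 2.96 FPKM (SD, n = 3), Zfp932 the largest ratio at 1.82, and Zfp819 a single read in tumor 3 and none in the others. Among genes that carry heterochromatin through replication, Dnmt1 was the most abundant and Chaf1b the least, with 4.52 ± 1.45 FPKM (SD, n = 3). Hells, the gene of a remodeler needed for DNA methylation, had 11.2, 3.83 and 5.04 FPKM, with tumor 1 the highest under every scaling. Of the lamina genes, Lmnb1 had 36.9 ± 4.76 FPKM (SD, n = 3), Emd had 15.0, 47.4 and 38.0 FPKM, and Lmna had the lowest mean at 0.965 FPKM.

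**Figure D5:**
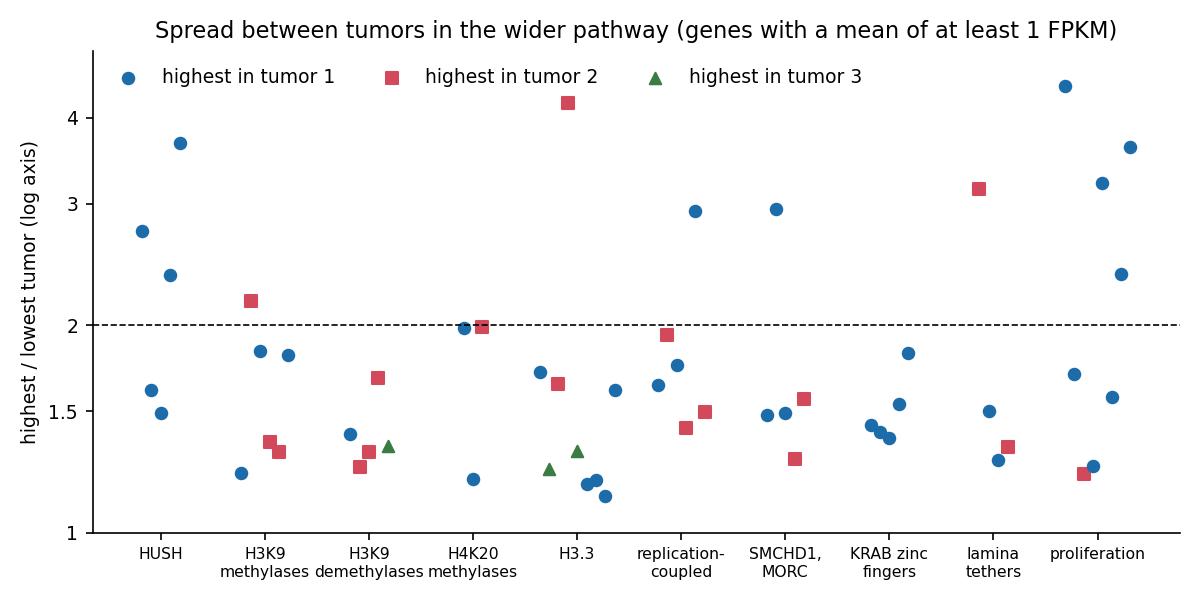
Ratio of the highest to the lowest tumor (log axis) for each gene with a mean of at least 1 FPKM in the pathway lists and a proliferation list, members included and genes of several lists drawn in each. The marker gives the highest tumor, and the dashed line marks a ratio of 2, which 6 of 42 genes other than the 10 exceed outside the proliferation list.

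Genes of the 2-cell embryo are a known target of TRIM28, SETDB1 and SMCHD1 in other cells. Of 10 such genes listed, among them Duxf3 and Tcstv3, 9 were found, and none had a read in any tumor. A count of 0 allows up to 3 reads, or 0.0976, 0.158 and 0.144 FPKM for 1 kilobase of exon in tumors 1, 2 and 3. Several of these genes are near-identical copies, whose reads the mapping quality filter can remove.

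Setdb1, Mphosph8 and Cbx3 were highest in tumor 1 under every scaling, and other lists were set beside them. The 8 proliferation genes summed to 271.1, 175.9 and 147.9 FPKM in tumors 1, 2 and 3. Tumor 1 was the highest for 7 of the 8, for 8 under equal summed FPKM and for 6 under median-of-ratios factors, where 50.6%, 60.7% and 35.3% of all genes were highest there, with Pcna the most abundant and Ccnb1 at the largest ratio, 4.44. The myeloid and erythroid lists also had their highest sums there, as given above. Setdb1 had the order of tumors of the proliferation sum, lowest in tumor 3, whereas Mphosph8 and Cbx3 were lowest in tumor 2. The part of proliferation or of other cell types in these 3 genes was not tested.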

How the data were processed

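RNA of 3 Dnmt3b+/- PTCL was sequenced as paired ends. According to the methods of the study, trimmed reads were aligned to mm10 with STAR, filtered on mapping quality and quantified in SeqMonk, and the submitters' processing notes name STAR and mm10. The values the authors deposited are FPKM, per tumor and not pooled. The annotation release and strand setting are not given in the sources used here.

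Genes with no read are listed at the FPKM that 0.9 read would have, which gave the depth of each library. Reads were recovered with merged exon lengths of GENCODE M21, available for 99.6% of the genes, and 92.2%, 92.2% and 92.3% of the values in tumors 1, 2 and 3 were whole reads to within 0.01 read or, for large numbers, rounding of the deposited values. The lengths of 8 members gave whole reads. For Daxx and Smchd1 the only length within 10% of the annotated one that did was used. Of the symbols, 26 had become dates and were restored. Of genes with the same symbol, the one with the highest mean was used. Intervals are exact (Clopper-Pearson) 95% intervals on the reads of both tumors, scaled by depth.

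The members and lists were chosen with earlier results of these data known. Genes named in the text are the 10 members, the highest-mean, lowest-mean and largest-ratio gene of each pathway list (ratio at a mean of at least 1 FPKM), overlapping genes and pseudogenes of members with over 10 reads in a tumor, and the 5 genes nearest to the member with the largest ratio. Others are the most abundant marker genes or were named after their values were seen, as were the interferon and PML lists. In the HUSH list, RESF1 is the gene 2810474O19Rik, corrected after the values were seen from A430078G23Rik, which is Arhgef18. Pathway lists cover HUSH, H3 lysine 9 methyltransferases and demethylases, H4 lysine 20 methyltransferases, H3.3, replication, SMCHD1 partners, KRAB zinc fingers, the lamina, 2-cell genes and proliferation. Marker lists cover T-cells, B-cells, myeloid cells, fibroblasts, endothelium, erythroid cells and acinar cells.

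The alternatives were equal summed FPKM, median-of-ratios factors, repeated symbols summed, each tumor left out, pseudocounts of 0.1 and 1 FPKM, fold thresholds of 1.5 and 3, and minimum means of 0.2 and 10 FPKM or none. The recovery of depth and the finding of genes raised in a single tumor were tested on a simulated table, which held counting error only. The other steps were not tested in this way. The calculations used SciPy 1.17.1, NumPy 2.4.6 and pandas 2.3.3 in Python 3.11, and matplotlib 3.10.9 drew the plots.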

Additional observations from a re-analysis of the deposited data

How the results depend on the processing

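The number of the 10 genes with a highest tumor at least 2 times the lowest was 3, became 4 under equal summed FPKM and 2 under median-of-ratios factors. It ranged from 0 to 3 with 1 tumor left out, 1 without tumor 1 and 0 without tumor 2, and fewer tumors can only lower it. With a fold threshold of 1.5 it was 6, against 62.8% of all genes, and with 3 it was 1, against 16.5%. The median ratio of 1.58 became 1.77 under equal summed FPKM and ranged from 1.17 to 1.38 with 1 tumor left out, which also can only lower it. The number of genes highest in tumor 1 was 4 and ranged from 5 to 7 with another tumor left out. The number highest in tumor 2 was 4, became 2 under equal summed FPKM, and was 5 without either other tumor. The number highest in tumor 3 was 2 and ranged from 3 to 5. Pseudocounts, summed symbols and median-of-ratios factors left these values within 1.5 times or within the spread between tumor pairs. The share of all genes past 2 times lay between 27.7% and 43.4% over the other minimum means and scalings.

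Rescaling hardly moves a mean over the 3 tumors, and leaving out 1 of 3 cannot move it by its SD, so the recomputed means and HP1 shares say nothing about stability. The Daxx mean of 29.9 FPKM ranged from 15.7 to 37.9 FPKM with 1 tumor left out. The ratio of a member left its counting interval in 16 of 20 values under the rescalings. A rescaling moves the ratios of all genes between a given pair of tumors alike, so these values are not separate pieces of evidence. For Trim28, Cbx1, Cbx5 and Atrx the highest or lowest tumor also changed, so some values compare another pair than the interval. The intervals cover counting error and not the choice of scaling. No paired analysis was possible because the replicate numbers are shared only with bisulfite libraries, which were not analysed here. The counting interval of the Cbx3 ratio includes 2, and 3 tumors of a single group limit every statement about tumors.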
